A study of Mus musculus with 8 samples.

Results

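The chemokine genes of dermal fibroblasts form a group of 10 in these data: Ccl2, Ccl7, Ccl8, Ccl11 and Ccl19 of the CC class, and Cxcl1, Cxcl5, Cxcl12, Cxcl13 and Cxcl14 of the CXC class. They were read by 14 probe sets, being every probe set that the platform annotation gives to exactly 1 of these symbols, out of 45037 non-control probe sets on the array. Expression had been measured on Affymetrix arrays, 1 per mouse, in fibroblasts from 4 old (18 months) and 4 young (2 months) male C57Bl/6 mice, and the comparison asks how these cells differ with age. The labels name no mutation and no treatment for either group. Per the labels' protocols, the dermis was freed of subdermis and digested with collagenase, and cells were sorted as positive for Pdgfra and CD34 and negative for CD45, CD117, CD24, CD31 and EpCam. RNA of 5000 cells per mouse was amplified for 21 cycles. The arrays thus describe 1 sorted gate of the dermis. A lower or higher level in such bulk RNA cannot be told apart from fewer or more cells that carry the transcript.

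Chemokines are small secreted proteins that guide white blood cells along a gradient by binding receptors on their surface. In the dermis, fibroblasts are a main source of them: they release monocyte, neutrophil and eosinophil attractants after signals such as interleukin-1, tumour necrosis factor, interleukin-4 or oncostatin M, and they release Cxcl12 without such a stimulus. A second set of receptors, called atypical, binds chemokines without the usual signalling and removes them by uptake.

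Values are log2 expression, so that a difference of 1 is a doubling. Depth has no meaning for an array, and the number of arrays limits the precision. The median of all probe set means was 5.10, and a probe set with a lower mean is called dim here. Non-specific control probe sets had a median of 3.91 and reached 7.20, so that levels up to 7.20 can lie within the range of these controls. Of the 14 chemokine probe sets, 2 were dim, 1 of Cxcl13 and the only one of Cxcl5. Fibroblast markers other than Pdgfra lay above that median, and the mean log2 level of the 8 markers was lower in every old than in every young mouse, from 10.3825 to 10.5775 in old and from 10.6325 to 10.6912 in young mice. Pdgfra, a gene of the sort itself, was 1 of these 8 and dim, at 4.47 ± 0.28 in old and 5.06 ± 0.25 in young mice (SD, n = 4 each). Cd34, also a gene of the sort, was higher in every old than in every young mouse. It was at 11.01 ± 0.035 in old and 10.815 ± 0.06 in young mice (SD, n = 4 each). Its change of 0.20 did not pass (limma adjusted p = 0.126). Of the 8, Thy1, a surface protein of fibroblasts, passed the test and fell by 0.61 ± 0.07 in old mice (SE, limma adjusted p = 0.00208), and its part in the chemokine values was not tested. Pdgfra and Col1a2 changed by -0.59 and -0.40, and Col1a1, Col3a1, Dcn and Lum by -0.05, -0.02, 0.05 and -0.05, none of them called. The lower mean of the list thus rests mostly on Thy1, Pdgfra and Col1a2. Titles number the mice in 2 unbroken runs, each with 2 old and 2 young mice, the makeup stated for a collection day. Replicates 1 and 2 of each age form the lower run and replicates 3 and 4 the higher run. Whether the runs are the days is not stated.

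Old fibroblasts carried more Ccl11 and more Cxcl12 transcript than young ones, and no other gene of the group passed the test. Ccl11 was 2.65-fold and Cxcl12 by its brightest probe set 3.43-fold higher in old mice. The young levels of both lay under 7.20, within the range of the non-specific controls, so that these folds are those of the deposited values and may not be exact for the transcripts. Of the 14 probe sets, 2 rose, none fell and 12 did not pass (limma, Benjamini-Hochberg adjusted p under 0.05 over all 45037 probe sets). That is 14.3% of the chemokine probe sets, against 2.58% of all probe sets, of which 1.23% rose and 1.35% fell. At an unadjusted p under 0.05, 6 of the 14 differed (42.9%), against 13.4% of all. These 6 are the probe sets of Ccl11, Cxcl12 and Cxcl14 only, so they are not separate genes. Of all 45037 probe sets 22507 were dim, against 2 of the 14, so these shares compare probe sets of unlike level. Groups did not overlap in 3 of the 14, against 8.44% of all. The median change was 0.09 over the 14 and 0.01 over all probe sets. Over all probe sets 1163 were called. Among old mice, removing replicate 2, 3 or 4 lowered that count to 713, 698 or 707. Among young mice, removing replicate 2 or 3 lowered it to 725 or 721. In a fit with 1 probe set a gene, the brightest, the calls were Ccl11 and Cxcl12, 2 of 10 genes, against 3.97% of all genes. That fit reads the same probe sets and values of these genes, so it is no separate support.

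**Figure D1:**
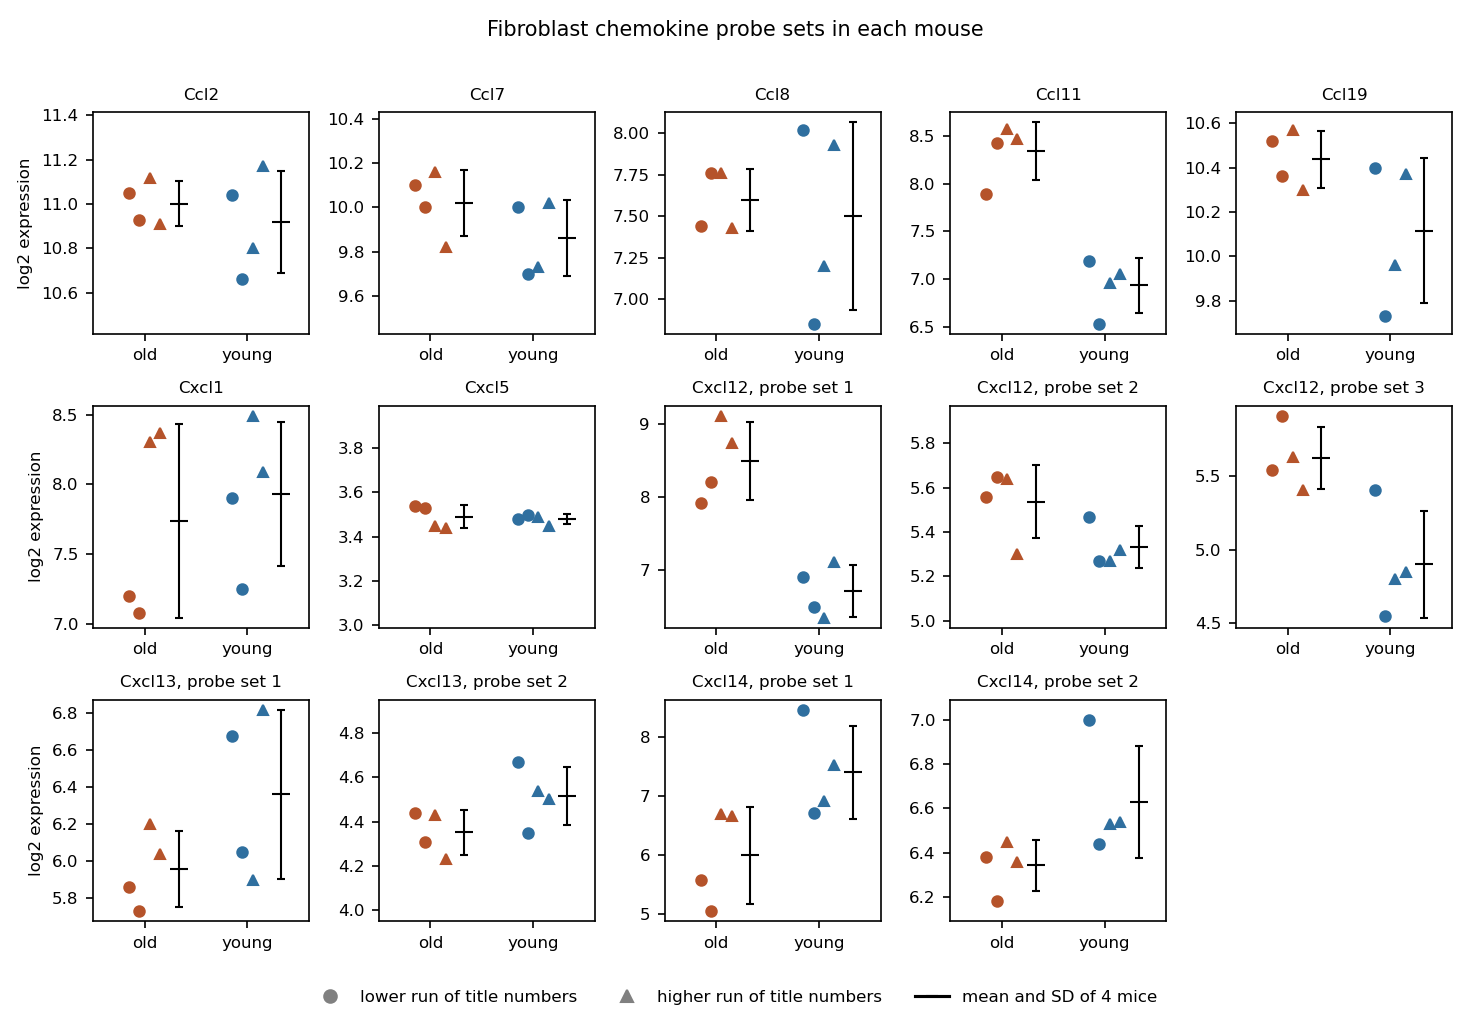
Each panel shows the log2 expression of 1 chemokine probe set in 4 old and 4 young mice, with circles and triangles for the lower and higher run of title numbers and a bar for the mean and SD; probe sets of a gene are numbered from the brightest. All old mice lie above all young mice for Ccl11 and for the first probe set of Cxcl12, and below them for the first probe set of Cxcl14.

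Among the CC chemokines, Ccl11 (probe set 1417789_PM_at) encodes eotaxin, which attracts eosinophils through the receptor Ccr3. Its log2 level was 7.89, 8.43, 8.57 and 8.47 in old mice, against 7.19, 6.53, 6.96 and 7.05 in young mice. The lowest old mouse lay above the highest young mouse. The means were 8.34 ± 0.31 in old and 6.93 ± 0.28 in young mice (SD, n = 4 each), a rise of 1.41 ± 0.18 (SE, limma adjusted p = 0.00414). Leaving out any 1 mouse gave a rise of 1.27 to 1.56 with an adjusted p of at most 0.0174. The rise was 1.30 within the lower run and 1.515 within the higher run of title numbers.

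Ccl11 lies on chromosome 11 in a row of chemokine genes, with Ccl7 on one side and Ccl12 on the other, Ccl2 next to Ccl7 and Ccl8 next to Ccl12. The products of Ccl2, Ccl7 and, in mouse, Ccl12 attract monocytes through Ccr2, and mouse Ccl8 acts through Ccr8. None of these 4 neighbours passed the test. Ccl2 was at 11.05, 10.93, 11.12 and 10.91 in old mice, against 11.04, 10.66, 10.80 and 11.17 in young mice. The groups overlapped over most of their range, and the change was 0.09 ± 0.11 (SE, limma adjusted p = 0.860). Ccl7 was at 9.82 to 10.16 in old mice, against 9.70 to 10.02 in young mice, with a change of 0.16 ± 0.10 (SE, limma adjusted p = 0.613), or 0.10 without young replicate 2. Ccl8 was at 7.44, 7.76, 7.76 and 7.43 in old mice, against 8.02, 6.85, 7.20 and 7.93 in young mice. The old mice all fell inside the span of the young ones, and the change was 0.10 ± 0.25 (SE, limma adjusted p = 0.940). Without young replicate 2 the change of Ccl8 was -0.12. Ccl12, which is no member of the group, had a dim probe set with a change of -0.03 ± 0.06.

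The change of Ccl11 was larger than that of each of the 3 neighbours in the group. It exceeded that of Ccl2 by 1.32 ± 0.19, that of Ccl7 by 1.25 ± 0.21 and that of Ccl8 by 1.31 ± 0.21 (SE). In each case the difference between the 2 genes was larger in all 4 old mice than in all 4 young mice (2-sided exact permutation test, p = 0.0286, the smallest that 4 against 4 allows, and 0.0343 after adjustment over the 6 pairs of probe sets compared). These pairs were chosen after the values were seen, with Ccl11 known to be the gene of the row that rose. The 3 comparisons share the Ccl11 values, so their p-values are not independent support. The probe sets of Cxcl13 were not compared with each other.

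Ccl19, which draws dendritic cells and T cells through Ccr7, was at 10.52, 10.36, 10.57 and 10.30 in old mice, against 10.40, 9.73, 9.96 and 10.37 in young mice. The 2 highest young mice lay within the span of the old ones. The change was 0.32 ± 0.15 (SE, limma adjusted p = 0.399), or 0.19 without young replicate 2. The mouse genome carries near-identical copies of Ccl19, so that a probe set may read more than 1 of them and its level is uncertain in that respect.

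**Figure D2:**
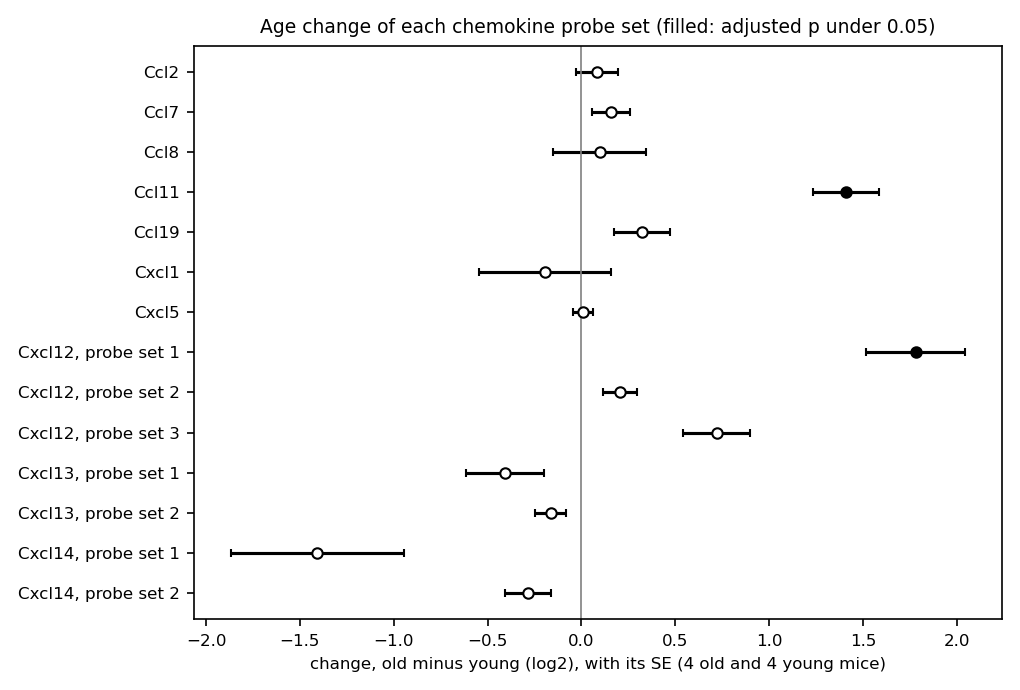
The horizontal axis gives the change in log2 expression, old minus young, of each of the 14 chemokine probe sets with its standard error (4 old and 4 young mice), and filled points passed the test. Ccl11 at 1.41 and the first probe set of Cxcl12 at 1.78 are the filled points, while the first probe set of Cxcl14 at -1.41 has the widest error, 0.46.

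Among the CXC chemokines, Cxcl12 encodes stromal cell-derived factor, the ligand of Cxcr4 that holds blood stem cells and lymphocytes in their niches and that also binds the atypical receptor Ackr3. By its brightest probe set (1448823_PM_at) its log2 level was 7.91, 8.20, 9.11 and 8.74 in old mice, against 6.90, 6.49, 6.34 and 7.11 in young mice. The groups lay apart, with the 2 old mice of the higher run above the other two. The means were 8.49 ± 0.54 in old and 6.71 ± 0.36 in young mice (SD, n = 4 each), a rise of 1.78 ± 0.27 (SE, limma adjusted p = 0.00901). Leaving out any 1 mouse gave 1.57 to 1.97 and an adjusted p of at most 0.0341.

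The other 2 probe sets of Cxcl12 were less bright and gave smaller changes. One (1417574_PM_at) was at 5.54, 5.91, 5.63 and 5.41 in old mice, against 5.41, 4.55, 4.80 and 4.85 in young mice. Its groups met at 5.41, and its change was 0.72 ± 0.18 (SE, limma adjusted p = 0.0736). It passed without young replicate 1 (0.89, limma adjusted p = 0.0158). The other (1439084_PM_at) was at 5.56, 5.65, 5.64 and 5.30 in old mice, against 5.47, 5.27, 5.27 and 5.32 in young mice, with a change of 0.21 ± 0.09 (SE, limma adjusted p = 0.369). The change of the brightest probe set exceeded these by 1.06 ± 0.36 and 1.58 ± 0.33 (SE). The exact permutation p was 0.0286 each, the smallest possible here, and 0.0343 adjusted over the 6 pairs. The brightest probe set was known to have changed most and is shared by these comparisons, so their p-values are not independent support. The mean of the 3 probe sets rose by 0.90 (limma adjusted p = 0.00428).

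RefSeq promoter windows, from 250 bases before to 50 bases after a gene's start, were given for 6 of the 10 genes, namely Ccl8, Ccl19, Cxcl1, Cxcl12, Cxcl13 and Cxcl14. The windows were searched on both strands for 4 motifs: GGANTTTCC, a form of the NF-kappaB site; TTCNNNGAA, the form bound by STAT factors; GGGCGG, the GC box; and TATAAA, the TATA box. Of 32851 windows of this length, 1.25% held the first, 8.30% the second, 35.7% the third and 13.6% the fourth. The window of Cxcl12 is shown because Cxcl12 is the gene that rose and has one, and that of Cxcl1 because it alone of the 6 held the NF-kappaB letters. Capitals mark the motif matches.
Cxcl12, GRCm38.p6 chr6:117168285-117168584, plus strand: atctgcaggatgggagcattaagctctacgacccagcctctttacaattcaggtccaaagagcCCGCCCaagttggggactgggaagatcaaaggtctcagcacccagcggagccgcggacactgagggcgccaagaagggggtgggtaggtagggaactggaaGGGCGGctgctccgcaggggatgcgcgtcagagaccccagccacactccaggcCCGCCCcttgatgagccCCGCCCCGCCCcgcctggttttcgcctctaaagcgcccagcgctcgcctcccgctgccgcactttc
Cxcl1, GRCm38.p6 chr5:90890995-90891294, plus strand: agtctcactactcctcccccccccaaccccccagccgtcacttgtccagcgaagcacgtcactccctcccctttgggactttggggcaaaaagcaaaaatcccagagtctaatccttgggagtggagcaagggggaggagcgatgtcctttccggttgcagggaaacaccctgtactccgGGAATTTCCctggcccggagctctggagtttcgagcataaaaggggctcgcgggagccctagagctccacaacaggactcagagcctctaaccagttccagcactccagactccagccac
The Cxcl12 window held 5 GC boxes, the last 2 sharing a base, and none of the other motifs. In the Cxcl1 window the NF-kappaB letters began 70 bases before the start, and none of the other motifs was found. The window of Cxcl14 held 3 GC boxes, of which 2 overlap, and 1 STAT form; those of Cxcl13 and Ccl8 held 1 TATA box each, and that of Ccl19 held none of the 4. A match is a run of letters and not a measured binding site.

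Cxcl14, a chemokine that skin makes in the absence of inflammation, was lower in old mice by its first probe set (1418456_PM_a_at) without passing the test. Its log2 level was 5.58, 5.05, 6.69 and 6.66 in old mice, against 8.46, 6.71, 6.91 and 7.53 in young mice. The groups did not overlap, but only 0.02 parted the highest old from the lowest young mouse. The change was -1.41 ± 0.46 (SE, unadjusted p = 0.0132, limma adjusted p = 0.182). Over all settings but those without 1 mouse, the adjusted p lay between 0.0977 and 0.249. The second probe set (1418457_PM_at) was at 6.38, 6.18, 6.45 and 6.36 in old mice, against 7.00, 6.44, 6.53 and 6.54 in young mice. Its groups touched at a single old mouse, and its change was -0.29 ± 0.12 (SE, limma adjusted p = 0.348), or -0.16 without young replicate 1. The changes of the 2 probe sets differed by -1.12 ± 0.46 (SE; exact permutation p = 0.0571, also 0.0571 adjusted over the 6 pairs).

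Cxcl13, which draws B cells through Cxcr5, was at 5.86, 5.73, 6.20 and 6.04 in old mice by its brighter probe set, against 6.68, 6.05, 5.90 and 6.82 in young mice. Young replicates 1 and 4 lay above every old mouse and the other two within their span. The change was -0.41 ± 0.21 (SE, limma adjusted p = 0.466), or -0.25 without young replicate 4. The dim probe set of the gene changed by -0.16 ± 0.08 (SE, limma adjusted p = 0.463).

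Cxcl1 and Cxcl5 attract neutrophils through Cxcr2. Cxcl1 was at 7.20, 7.08, 8.30 and 8.37 in old mice, against 7.90, 7.25, 8.49 and 8.09 in young mice. In old mice it was higher in both mice of the higher run than in both of the lower run, and the same held in young mice. Age changed it by -0.20 ± 0.35 (SE, limma adjusted p = 0.907), and its sign turned with array weights (0.05) and without old replicate 2 (0.02). Cxcl5 lay near the median of the non-specific controls in all mice, from 3.44 to 3.54 in old and from 3.45 to 3.50 in young mice. At that level a change could not be detected, and the measured one was 0.01 ± 0.05.

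Within each run of title numbers Ccl11 and the 3 probe sets of Cxcl12 were higher in old mice on average, and both probe sets of Cxcl14 and of Cxcl13 were lower. The change of the brightest Cxcl12 probe set was 1.36 in the lower and 2.20 in the higher run, a difference of 0.84 ± 0.37 (SE, limma interaction adjusted p = 0.748). That of the first Cxcl14 probe set was -2.27 in the lower and -0.545 in the higher run, a difference of 1.725 ± 0.70 (SE, limma interaction adjusted p = 0.725). No interaction passed over all 45037 probe sets (0 by limma, or 0%), with 3043 at an unadjusted p under 0.05 (6.76%). Among the chemokine probe sets that number was 1 of 14, or 7.14%, the first of Cxcl14. With the run as a term of the fit, Ccl11 and the brightest probe set of Cxcl12 kept their calls (adjusted p = 0.00323 and 0.00547).

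**Figure D3:**
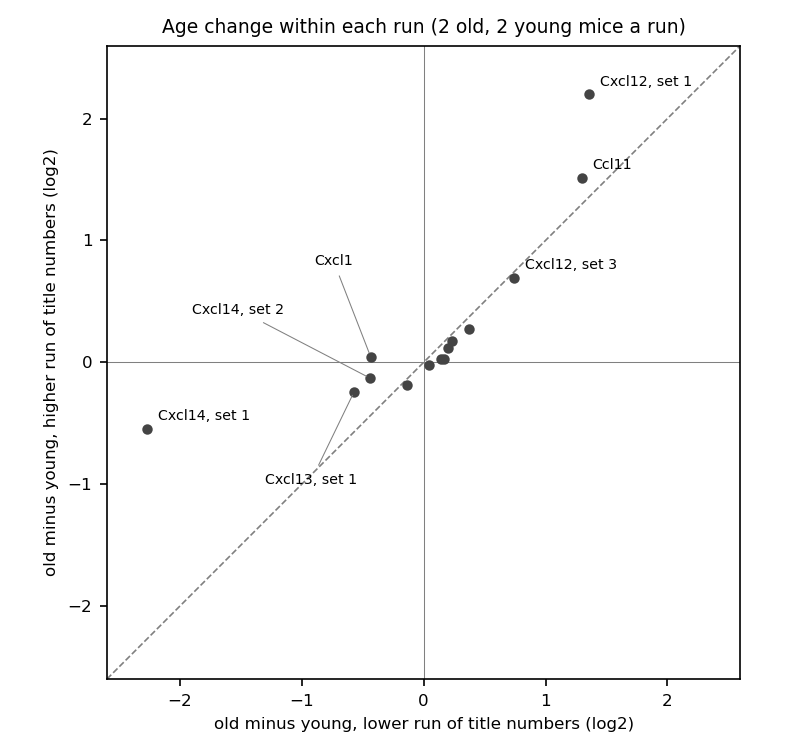
Each point is a chemokine probe set, placed by its change in log2 expression (old minus young) within the lower run of title numbers on the horizontal axis and within the higher run on the vertical axis, with 2 old and 2 young mice in each run. Ccl11 at 1.30 and 1.515 lies near the dashed line of equal change, while the first probe sets of Cxcl12 (1.36 and 2.20) and Cxcl14 (-2.27 and -0.545) lie above it.

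A lone mouse far from the other three of its age was found in 0 of the 28 sets of 4 values (14 probe sets, 2 ages) by Dixon's test at its 95% level. Ranks within an age were shared between probe sets. Among old mice, replicate 3 was the highest in 8 of the 14 probe sets, against 21.8% of all probe sets, and replicate 4 the lowest in 8, against 23.0% of all. Among young mice, replicate 2 was the lowest in 10 of the 14, against 19.0% of all probe sets, and replicate 1 the highest in 8, against 28.0% of all. In 11 of the 14, all but those of Cxcl1 and Cxcl5 and the dim one of Cxcl13, young replicates 1 and 4 both lay above young replicates 2 and 3, an order seen in 18.1% of all probe sets. The median SD between mice of the 14 probe sets was 0.18 in old and 0.31 in young mice, against 0.12 and 0.11 for all probe sets.

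The receptors were read by 29 probe sets of 18 genes, of which 20 were dim, and those called belonged to 2 atypical receptors that were lower in old mice. None rose, 3 fell and 26 did not pass (10.3% called, against 2.58% of all probe sets), with a median change of 0.02. Ackr2 takes up inflammatory CC chemokines, Ccl2 and Ccl11 among them. By its brightest probe set it was at 7.64, 7.93, 7.93 and 7.86 in old mice, against 8.49, 9.49, 9.37 and 9.34 in young mice. The groups were apart, and it fell by 1.33 ± 0.20 (SE, limma adjusted p = 0.00936). A second probe set fell by 1.05 ± 0.16 (SE, limma adjusted p = 0.0120), and the third changed by -1.01 ± 0.23 (SE, limma adjusted p = 0.0548).

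Ackr4 takes up Ccl19, Ccl21 and Ccl25. It was at 8.86, 9.16, 7.68 and 8.05 in old mice, against 10.04, 10.85, 10.60 and 9.84 in young mice. All old mice lay below all young mice, those of the higher run lowest, and the gene fell by 1.895 ± 0.34 (SE, limma adjusted p = 0.0217). Removal of old replicate 4 took its adjusted p to 0.0646, and removal of young replicates 2 or 3 to 0.0631 or 0.0674, past the threshold. Ackr3, the atypical receptor that binds Cxcl12, changed by 0.47 ± 0.17 and did not pass (limma adjusted p = 0.238).

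**Figure D4:**
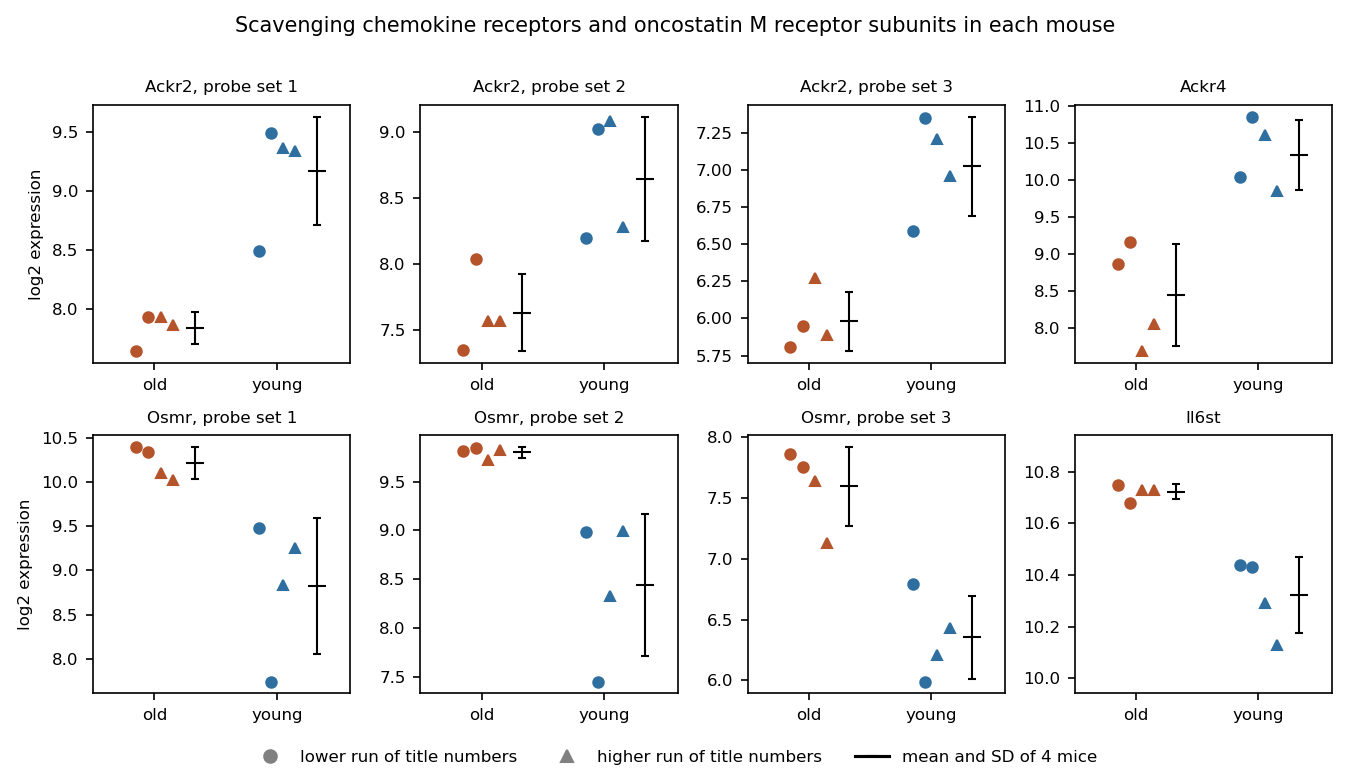
Each panel shows the log2 expression of 1 probe set in 4 old and 4 young mice, with circles and triangles for the lower and higher run of title numbers and a bar for the mean and SD. Every old mouse lies below every young mouse for Ackr2 and Ackr4, and above every young mouse for Osmr and for the probe set of Il6st that passed the test. Il6st is shown by that probe set only. In its least bright probe set, not shown, the groups overlapped, with the lowest old mouse at 10.11 and the highest young mouse at 10.12.

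Receptors of the signals that induce chemokines, with the transcription factors below them, were read by 55 probe sets of 26 genes. Of these 3 rose, none fell and 52 did not pass (5.45% called, against 2.58% of all probe sets), with a median change of 0.05. With the run of title numbers as a term of the fit, 3 rose and 4 fell. The falling ones were 1 probe set each of Tnfaip3 and Ifngr2 and 2 of Ikbkg (limma adjusted p = 0.0320, 0.0386, 0.0425 and 0.0450). In that fit the brighter probe set of Tnfaip3 changed by -0.06 and the less bright one of Ifngr2 by -0.02 (limma adjusted p = 0.873 and 0.953). The remaining probe sets of Ikbkg did not pass either. The 3 that rose belong to the oncostatin M receptor, a pair of chains encoded by Osmr and Il6st. Osmr by its dimmest probe set was at 7.86, 7.75, 7.64 and 7.13 in old mice, against 6.79, 5.99, 6.21 and 6.43 in young mice. The groups were apart, and it rose by 1.24 ± 0.20 (SE, limma adjusted p = 0.0122). A second probe set rose by 1.36 ± 0.30 (adjusted p = 0.0497), lost on removal of any 1 old mouse or of young replicate 3 (adjusted p up to 0.126), and the brightest did not pass, with 1.39 ± 0.32 (adjusted p = 0.0613). Il6st rose by 0.40 ± 0.08 (SE, limma adjusted p = 0.0294) by 1 of its 3 probe sets, and missed the threshold on removal of the same mice (adjusted p up to 0.0830). The other 2 probe sets of Il6st did not pass, with changes of 0.30 and 0.25 (limma adjusted p = 0.113 and 0.169).

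Of the proteases that cut chemokines and the heparan sulfate carriers that hold them at the cell surface, 21 probe sets of 13 genes were measured. None rose, 1 fell and 20 did not pass (4.76% called, against 2.58% of all probe sets), with a median change of 0.03. The one that fell was Mmp3, or stromelysin, at 10.81, 10.71, 10.85 and 10.72 in old mice, against 11.13, 11.17, 11.29 and 11.34 in young mice. Its groups were apart and it fell by 0.46 ± 0.07 (SE, limma adjusted p = 0.00931). Of the chemokines outside the group, 36 probe sets of 25 genes, 17 of them dim, 0 passed in limma (8 at an unadjusted p under 0.05), with a median change of 0.03. The smallest p-values among them were those of the 2 probe sets of Cxcl16, with changes of -0.32 ± 0.08 and -0.36 ± 0.10, and of Ccl9, with -0.37 ± 0.10 (SE, limma adjusted p = 0.0856, 0.0986 and 0.117). The second probe set of Ccl9, which is dim, changed by 0.05. The change of largest size in this list, chosen after its values were seen, was that of Cxcl2, a neutrophil attractant next to Cxcl1 on chromosome 5, at -1.24 ± 0.42 (SE, limma adjusted p = 0.203). Over these 4 lists together, 7 of 141 probe sets passed, against 2.58% of all. Removing old replicate 4 or young replicate 3 brought the count to 4, and the run of title numbers as a term of the fit brought it to 12.

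Markers of 13 other cell types were read by the brightest probe set of 55 genes, of which 30 were dim. Of these, 2 of 55 were higher in old mice and none lower, by the fit over all 45037 probe sets, which called 2.58% of them. A separate fit with the brightest probe set of each gene, adjusted on its own, called 3.97% of all genes. The 2 were Mlana, of melanocytes, at 9.10 ± 0.61 in old and 6.23 ± 0.59 in young mice, and Kcnj8, of pericytes, at 7.91 ± 0.35 in old and 6.75 ± 0.13 in young mice (SD, n = 4 each). Of the white blood cell markers, Ptprc, which encodes CD45, was dim at 3.51 ± 0.07 in old and 3.43 ± 0.03 in young mice. The 8 macrophage and monocyte markers, 6 of them dim and none called, had a mean log2 level from 5.06 to 5.10 in old and from 4.94 to 5.11 in young mice. The other 4 melanocyte markers (Pmel, Tyrp1, Dct and Tyr) changed by -0.09, -0.06, 0.11 and 0.12, and the other 4 markers of pericytes and smooth muscle (Rgs5, Des, Myh11 and Acta2) by -0.05, -0.01, -0.04 and 0.09, none of them called. The difference of either list's mean thus rests mostly on 1 gene. The mean of the 5 melanocyte markers, 3 of them dim, ranged from 5.43 to 5.57 in old and from 4.77 to 5.08 in young mice, and that of the 5 pericyte and smooth muscle markers, 1 of them dim, from 6.08 to 6.27 in old and from 5.90 to 6.08 in young mice. B cell markers were the other list whose groups did not overlap, 5.43 to 5.52 in old and 5.10 to 5.31 in young mice, with none of its 2 genes called.

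In 5 of the 14 chemokine probe sets, those of Ccl11 and Cxcl1 and the first of Cxcl12, Cxcl13 and Cxcl14, both old mice of the higher run lay above both of the lower run, an order seen in 22.1% of all probe sets. The means of the keratinocyte markers and of the melanocyte markers had the same order. That of the melanocyte markers was 5.50, 5.43, 5.57 and 5.55 in old mice, and Mlana was at 8.46, 8.78, 9.84 and 9.32. Of the 6 keratinocyte genes 1 was dim and none called. Their mean log2 level was 5.98, 5.96, 6.495 and 6.285 in old mice, against 6.09, 5.77, 5.635 and 6.21 in young mice. In young mice the melanocyte mean was 5.08, 4.77, 4.83 and 5.01. In both lists young replicates 1 and 4 lay above young replicates 2 and 3, the order of most chemokine probe sets. The fibroblast, B cell, blood and lymphatic endothelium and Schwann cell means had that order too, and those of the other lists did not. Krt5, which marks basal keratinocytes, was at 7.44, 7.15, 8.78 and 8.43 in old mice, against 7.29, 6.36, 6.11 and 7.55 in young mice. Its change of 1.12 was the largest of the list. Krt14, Krt15 and Epcam changed by 0.235, 0.125 and 0.40, and Cdh1 and Trp63, in the other direction, by -0.03 and -0.33. The part of these other cells in the chemokine values was not tested.

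The genes whose profile over the 8 mice came nearest to that of a called chemokine were sought among 10559 genes that were not dim, by the root mean square difference of log2 levels after the young mean was taken off each. For Ccl11 they were Scn7a, Tmem158 and Plaat3, at 0.219, 0.224 and 0.236. For the brightest probe set of Cxcl12 they were Cox8b, Ct55 and Lgi2, at 0.252, 0.286 and 0.326.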

How the data were processed

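The deposited values are log2 expression per probe set, which the authors made by RMA in the affy package, per the submitters' processing notes. No version or parameter is stated. RMA adjusts background, normalizes arrays to each other and summarises the probes of a set, which compresses changes of dim probe sets. Detection calls and scanner files were not used here, and the genome build is unnamed in them. From 45141 probe sets, 104 controls were removed. Gene symbols came from the platform annotation, checked through gene identifiers (0 changed).

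Old mice were compared with young mice by limma 3.58.1 in R 4.3.3 (lmFit, eBayes, 2-sided), with adjustment over all 45037 probe sets and no filter. The difference of the age effect between runs of title numbers was an interaction term. Pairs of probe sets were compared by exact permutation (scipy 1.17.1). The 10 genes, the 4 lists of related genes, the markers and the tests were chosen with earlier results of these data known. All probe sets of the 10 genes are named. From each list those past the threshold are named, or else the 3 with the smallest p. Further genes (Ccl12, Ackr3, Cxcl2, those called only with the run as a term, and single markers) were named after their values were seen. Alternatives changed the unit of the fit, the filter, the scaling, the prior, array weights, the run as a term, the threshold and the mice. Scripts were tested on simulated arrays.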

Additional observations from a re-analysis of the deposited data

How the results depend on the processing

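The counts of chemokine probe sets kept to 2 or 3 higher and 0 lower in old mice under every alternative run, and 0 passed the limma test of a difference between the runs of title numbers, a test that called no probe set at all with 2 mice per age and run (3043 of all at an unadjusted p under 0.05). The third was the Cxcl12 probe set with a change of 0.72, which passed with dim probe sets left out (limma adjusted p = 0.0411), with a prior by mean level (0.0382) and without young replicate 1 (change 0.89), and also under the looser threshold. Over all probe sets 1163 were called, against 679 with the brightest probe set of each gene, 755 with the mean of probe sets, 409 at an adjusted p under 0.01, 1986 under 0.1, and 698 to 1089 without 1 mouse. Of the related lists 7 were called, against 11 with array weights and 12 with the run of title numbers as a term. The run as a term added 1 probe set of Cx3cl1, higher in old mice. It also added 1 each of Tnfaip3 and Ifngr2 and 2 of Ikbkg, all lower. The count was 2 at an adjusted p under 0.01, 14 under 0.1, and 4 to 9 without 1 mouse. Signs turned in 4 genes with small changes. Without 1 mouse, Ccl2 ranged from -0.00083 (without young replicate 2) to 0.17, Ccl8 from -0.12 (without young replicate 2; -0.0025 without young replicate 3) to 0.27, Cxcl1 from -0.42 to 0.024 (without old replicate 2), and Cxcl5 from -0.0067 (without old replicate 1; -0.0033 without old replicate 2) to 0.027. With array weights Cxcl1 gave 0.050 and Cxcl5 -0.0068. Beyond these, Osmr by its second probe set missed the threshold after centring each array on its median (adjusted p = 0.0587), after quantile normalization (0.0507) and with the robust prior (0.0527). The causes were not tested. Of 362 values of single probe sets under an alternative, 335 kept direction and side of the threshold. No paired analysis was possible because the titles give old and young mice no shared replicate number. Dim probe sets, such as that of Cxcl5, limit what could be detected.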
